A study of Mus musculus with 24 samples.

Results

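Antigen-binding germinal center B cells taken 7 days after immunization were compared with resting follicular B cells, both from the spleen of female C57BL/6 mice. The comparison uses 6 of the 24 arrays of the series, 3 for each population, and the arrays were chosen by their titles alone. The other 18 arrays hold marginal zone, memory, plasma, day 40 germinal center and stimulated follicular B cells. The stimulated cells were treated for 6 h with antibodies to IgM and CD40. Of those groups, 3 are used here only to show where the day 7 germinal center cells differ. RNA was extracted with TRIZOL, amplified, labelled with biotin and hybridized to Affymetrix mouse genome arrays, which carry sets of short probes for most mouse genes. Follicular B cells, the recirculating naive population, came from mice of 8 to 10 weeks for which no immunization is named. T cells, myeloid cells, red cells and activated or plasma B cells were first removed with antibodies (to CD3, CD90 and CD5; to CD11b, F4/80 and Gr-1; to TER119; and to CD43, CD95 and CD138), and B220+ AA4.1- CD21int CD23+ cells were sorted. Germinal center B cells came from mice immunized at 8 to 10 weeks with the hapten NP on chicken gamma globulin in alum. Cells with surface IgD or IgM were removed along with T cells (CD3, CD90, CD5), NK cells (DX5, NK1.1), myeloid cells (F4/80, Gr1) and red cells (TER119), and cells that bound the related hapten NIP and were B220+ IgG1+ CD38dull PNA+ were sorted. The contrast therefore joins at least 3 differences that cannot be told apart in it: germinal center residence, class switching to IgG1 with hapten binding, and immunization of the animal. The labels do not say whether the 3 arrays of a group came from separate animals. The p-values therefore measure only spread between arrays, which may be technical. That spread is pooled within 8 groups over all 24 arrays, so a standard error can be wide because of a group not compared here.

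Germinal centers are transient structures that form in B cell follicles after T cell help. Their B cells divide rapidly and mutate their antibody genes in a dark zone, then test the new receptors in a light zone, where survival depends on antigen and on follicular helper T cells. Bcl6, a transcriptional repressor, is required for the state, and S1pr2, a receptor for the lipid sphingosine 1-phosphate, helps to hold cells in the follicle center. Resting follicular B cells lie outside the cell cycle, recirculate through S1pr1, and persist with the help of the survival protein Bcl2.

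Levels below are deposited GCRMA values on the log2 scale, so a difference of 1 is a 2-fold change in signal. Array medians ran from 2.40 to 2.56, between 39.3% and 43.1% of the probe sets of an array lay at the floor of 2.15. With 3 arrays a population, precision is limited by that number. Arrays of the same population correlated at r = 0.989 to 0.998 over all genes, and arrays of different populations at 0.938 to 0.945. Follicular replicate 1 lay slightly apart from the other follicular arrays (0.989 and 0.990, against 0.998). Of 11208 genes tested, 1616 were higher in germinal center B cells (14.4%) and 1858 were lower (16.6%) at a Benjamini-Hochberg adjusted p below 0.05 in limma and a log2 difference of at least 1; "rose" and "fell" below mean calls by this rule, and values after ± are standard errors unless named SD. The median difference over all tested genes was -0.0033. The background against which member counts are read is thus 31.0% in either direction. Where all 3 arrays of a population lay at or below their own median, the level is called at background and the difference is a lower bound. In these bulk samples fewer cells of a type and less RNA per cell cannot be told apart.

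Markers of other cells were checked before the comparisons. All 5 red cell and platelet genes with a probe set were at background in both populations, as were Cd3e, Cd4 and Thy1 of T cells and Ncr1, Gzma and Nkg7 of NK cells. None of 6 tested T cell genes was called. Among 16 macrophage, neutrophil and dendritic cell genes, 10 were at background in follicular and 9 in germinal center arrays, Csf1r, Itgam and C1qa among them in both. The summed level of these 16 genes was 8.04 to 9.32 in follicular and 11.66 to 11.98 in germinal center arrays. Of the 10 that were tested 2 rose, 1 fell and 7 were not called. Flt3, a growth factor receptor of dendritic cells and progenitors, made up much of it: it stood at 2.91, 4.45 and 4.24 in follicular and 10.43, 11.05 and 11.28 in germinal center arrays (7.05 ± 0.43, adjusted p = 2.73e-10). The macrophage gene Cd68 also rose (2.40 ± 0.63), and Adgre1, which encodes the F4/80 antigen used in both sorts, fell (-2.08 ± 0.32). The neutrophil gene S100a9 stood at 9.38 and 10.03 on germinal center replicates 1 and 2, and at the floor of 2.15 on replicate 3 and on every follicular array. S100a8 showed the same arrangement, at 7.27 and 7.77 against 2.15 elsewhere. Neither was called, but S100a9 was called higher without replicate 3 (7.55). The part of neutrophil RNA in other differences was not tested; the counts of calls without each of these arrays are in the closing section.

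**Figure D1:**
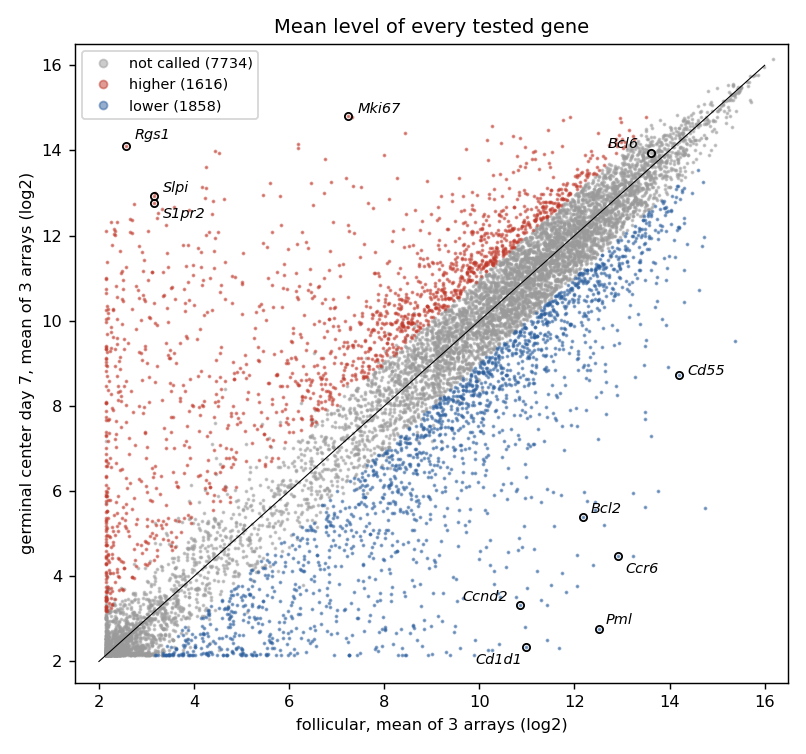
Mean log2 level of each of the 11208 tested genes in follicular (horizontal) and day 7 germinal center B cells (vertical), each the mean of 3 arrays; red points were called higher (1616), blue points lower (1858) and grey points neither. The line marks equal levels, and circles name 11 genes described in the text: Rgs1, Slpi, S1pr2 and Mki67 lie far above it, Bcl6 near it, and Pml, Cd1d1, Ccnd2, Bcl2, Ccr6 and Cd55 far below it.

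The largest rise was that of Rgs1, a protein that shortens signalling through chemokine receptors. It stood at 2.39, 2.66 and 2.66 in follicular and at 14.08, 14.30 and 13.90 in germinal center arrays, a difference of 11.52 ± 0.36 (adjusted p = 2.21e-14). Next came genes of mitosis and the cell cycle: Cdkn3 (10.07 ± 0.88), Spag5 (10.00 ± 0.63), E2f8 (9.93 ± 0.66), Ube2c (9.83 ± 0.45), Bub1 (9.77 ± 0.88), Cdca5 (9.74 ± 0.83), Nuf2 (9.72 ± 1.07) and Hmmr (9.69 ± 0.93). The other genes among the 12 largest rises were Gcsam, a signalling adaptor of germinal center B cells (9.96 ± 1.28), Tent5c, a poly(A) polymerase (9.84 ± 0.22), and Slpi, a secreted protease inhibitor (9.79 ± 0.20). Follicular cells were at background for Cdkn3, Gcsam, Nuf2 and Bub1.

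The largest fall was that of Pml, the scaffold of nuclear bodies. It went from 12.47, 12.57 and 12.49 in follicular to 2.88, 2.53 and 2.88 in germinal center arrays (-9.75 ± 0.48, adjusted p = 1.36e-11). Tent5a, a relative of Tent5c, moved the opposite way to it, from 11.82, 11.63 and 11.59 to background at 2.29, 2.34 and 2.33 (-9.36 ± 0.36). S100a10 (-9.15 ± 0.67), Edaradd (-8.93 ± 0.44), the transcription factor Hhex (-8.77 ± 0.61), the lipid-presenting molecule Cd1d1 (-8.65 ± 0.20) and the chemokine receptor Ccr6 (-8.45 ± 0.29) followed. The last of the 12 were Scml4 (-8.27 ± 0.32, but 0.03 on a second probe set), Rnf144a (-8.20 ± 0.29), Stoml1 (-8.15 ± 0.62), the cytokine receptor Il27ra (-8.12 ± 0.31) and Kctd14 (-8.11 ± 0.62). Cd1d1, at 10.81 to 11.08 in follicular arrays, was at background in germinal center arrays. In all 24 genes the 3 germinal center arrays lay on 1 side of all 3 follicular arrays, as the rule for naming them required; over all tested genes 28.1% were separated in this way upward and 29.5% downward.

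Of 13 tested genes of the germinal center program, 9 rose, 1 fell and 3 were not called, with a median difference of 5.98. S1pr2 stood at 3.12, 3.11 and 3.27 in follicular and 12.87, 12.86 and 12.56 in germinal center arrays (9.60 ± 0.91, adjusted p = 7.82e-08). All 7 tested genes of migration and signalling in the list rose, from Efnb1, a membrane ligand of Eph receptors (4.42 ± 0.61), to Gcsam. Plxnb2, a semaphorin receptor (7.62 ± 0.73), Rgs13 (6.73 ± 0.89) and Basp1 (5.98 ± 0.44) lay between them. Fas rose by 5.12 ± 0.53, but cells carrying its protein, CD95, had been removed from the follicular sort. The 6 transcription factors were divided, with 2 rises, 1 fall and 3 genes not called. Mef2b went from 2.59, 2.47 and 2.47 to 11.12, 10.68 and 10.44 (8.24 ± 1.16) and Mybl1 rose by 7.04 ± 1.10. Bcl6 itself was already high in follicular cells, at 13.75, 13.54 and 13.56, and stood between 13.62 and 14.19 in germinal center cells, so the arrays overlapped and the difference was not called (0.32 ± 0.18, adjusted p = 0.146). Irf8 (-0.29 ± 0.15) and Pou2af1 (0.42 ± 0.12) were likewise not called, and Lmo2 fell (-1.39 ± 0.38).

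**Figure D2:**
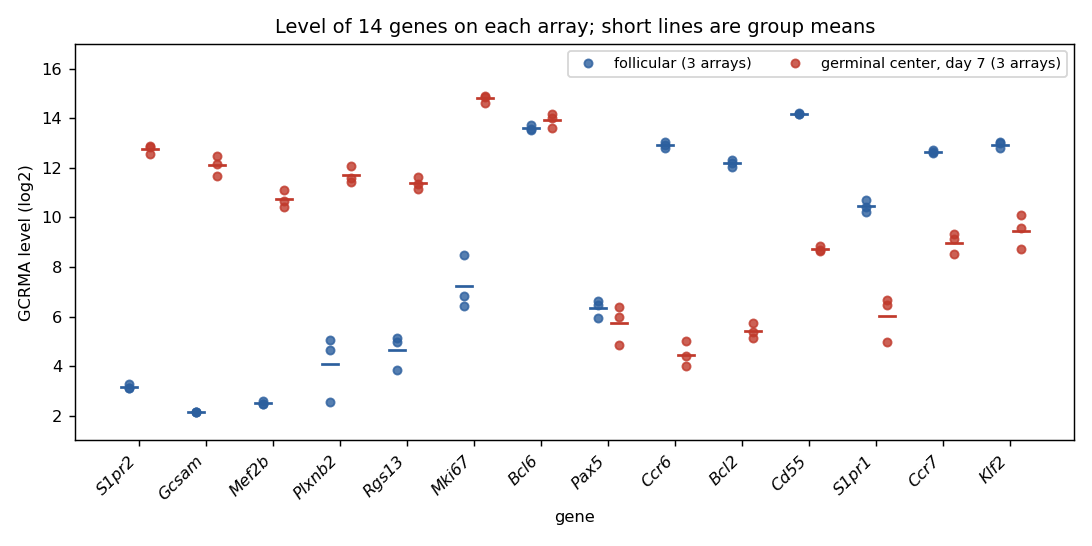
Level of 14 genes (log2, vertical) on each of the 3 follicular (blue) and 3 day 7 germinal center arrays (red), with short lines at the group means. The populations are far apart for 12 of the genes; the Bcl6 and Pax5 values overlap.

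All 9 tested genes of the naive follicular list fell (median -3.66). Bcl2 went from 12.21, 12.32 and 12.04 to 5.73, 5.36 and 5.12 (-6.79 ± 0.31, adjusted p = 4.37e-12). Cd55, a complement inhibitor on the cell surface, went from 14.21, 14.18 and 14.18 to 8.66, 8.68 and 8.85 (-5.46 ± 0.33). Fcer2a (CD23, -1.97 ± 0.19) and Cr2 (CD21, -1.72 ± 0.29) also fell, but their proteins were used to sort the follicular cells. Of 14 genes that hold lymphocytes at rest, 7 fell and none rose. Klf3 (-7.42 ± 0.69) and Slfn2 (-4.85 ± 0.37) fell most, and Klf2, a factor that maintains quiescence and recirculation, fell from 13.00, 13.03 and 12.80 to 9.59, 10.08 and 8.74 (-3.47 ± 0.57). Txnip fell by 2.00 ± 0.49 with an uneven germinal center group: replicates 1 and 2 stood at 11.31 and 11.37, and replicate 3 at 13.93, near the follicular arrays (14.19 to 14.23). Btg1 (-0.47 ± 0.11), Tob1 (-0.10 ± 0.26) and Foxo1 (-0.50 ± 0.11) were not called.

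The receptors that place B cells in the follicle changed in opposite directions. Among sphingosine 1-phosphate receptors, 2 rose and 2 fell. S1pr1, which directs exit into lymph and blood, went from 10.42, 10.71 and 10.22 to 4.96, 6.46 and 6.65 (-4.43 ± 0.57, adjusted p = 3.18e-06), while S1pr2 rose as above. S1pr4 fell (-2.72 ± 0.33), and S1pr3, known from marginal zone B cells, rose from 7.95, 8.59 and 8.22 to 10.88, 10.37 and 9.32 (1.94 ± 0.31). Of 8 chemokine, oxysterol and cannabinoid receptors, 4 fell and none rose. Ccr6 went from 12.94, 13.03 and 12.79 to 4.39, 4.01 and 5.0, and Gpr183, the oxysterol receptor that draws B cells to the follicle border, fell by 3.95 ± 0.34. Ccr7, which draws them to the T cell zone, fell by 3.66 ± 0.72, and Cnr2 by 2.42 ± 0.31. Cxcr4, the dark zone receptor, was high in both populations (13.62 to 13.89 and 14.17 to 14.48) and was not called (0.49 ± 0.14), although its arrays did not overlap. Cxcr5, which brings B cells into the follicle, was not called either (-0.55 ± 0.26).

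Regulators of G protein signalling rose beside these receptors: Rgs1, Rgs2 (2.70 ± 0.25), Rgs10 (5.81 ± 0.36) and Rgs13 were called, and Rgs19 was not (-0.60 ± 0.12). For Gna13, the G protein subunit downstream of S1pr2, the probe set with the highest mean differed by 0.53 ± 0.13 and was not called, whereas its 6 other probe sets differed by 0.82 to 3.41. The integrin subunits differed too. Itgb7 went from 13.04, 12.90 and 12.74 to 8.52, 7.98 and 8.27 (-4.64 ± 0.46), and its partner Itga4 fell by 2.27 ± 0.14. Itgb1, the other partner of Itga4, rose by 2.75 ± 0.40 on the probe set used and by 2.93 on a second, but 3 dimmer probe sets differed by 0.64, -0.28 and -0.47.

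Every one of the 29 tested mitosis genes rose, against 14.4% of all tested genes, with a median of 8.05 and a range from 6.21 (Bub1b) to 9.83 (Ube2c). For each of them the lowest germinal center array lay above the highest follicular array. Cdk1, the kinase that starts mitosis, stood at 3.50, 3.81 and 3.42 in follicular and 12.71, 12.67 and 12.62 in germinal center arrays (9.09 ± 0.67, adjusted p = 3.00e-09). Its cyclins Ccnb2 (9.29 ± 0.56) and Ccna2 (8.85 ± 0.69) rose alike. The spindle genes showed the highest median of the 3 roles, 8.97 over 9 genes, with Tpx2 (9.67 ± 0.67), Kif23 (9.29 ± 0.45) and Kif11 (9.18 ± 0.64) as examples. The proliferation marker Mki67 went from 8.47, 6.84 and 6.42 to 14.88, 14.90 and 14.63 (7.56 ± 0.50), and Foxm1, a transcription factor of mitotic genes, rose by 6.37 ± 0.68. None of the 29 was called between day 7 and day 40 germinal center cells. Only 5.92% of all tested genes were called in that contrast, so a count of none is near that share.

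Because these genes moved together, their promoters were read. RefSeq windows of 300 bases (GRCm38.p6, from 250 bases before to 50 after the start) were matched for 23 of the 29 genes. The element known as the cell cycle genes homology region, TTTGAA, was present on either strand in 18 of 23 (78.3%), against 14.8% of the 9102 tested genes with a window and 17.9% of all 32851 windows. The NF-Y box CCAAT was present in 19 of 23 (82.6%), against 43.3% of the tested genes and 37.4% of all windows. CCAAT was not particular to this list: it was in 57.1% of the replication windows and 100% of the 12 cholesterol synthesis windows. The 3 windows below belong to the mitosis genes with the largest rises among those whose window holds both; capitals mark TTTGAA and CCAAT on either strand. They lie at chr2:164769679-164769978 (plus strand), chr11:40733388-40733687 (minus strand) and chr9:61946750-61947049 (minus strand).
Ube2c: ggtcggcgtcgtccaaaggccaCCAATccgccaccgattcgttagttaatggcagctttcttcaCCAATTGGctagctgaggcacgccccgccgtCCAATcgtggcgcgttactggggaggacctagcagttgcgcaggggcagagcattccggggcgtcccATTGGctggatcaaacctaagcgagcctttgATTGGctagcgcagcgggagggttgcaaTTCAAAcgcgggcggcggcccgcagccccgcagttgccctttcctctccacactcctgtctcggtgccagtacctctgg
Hmmr: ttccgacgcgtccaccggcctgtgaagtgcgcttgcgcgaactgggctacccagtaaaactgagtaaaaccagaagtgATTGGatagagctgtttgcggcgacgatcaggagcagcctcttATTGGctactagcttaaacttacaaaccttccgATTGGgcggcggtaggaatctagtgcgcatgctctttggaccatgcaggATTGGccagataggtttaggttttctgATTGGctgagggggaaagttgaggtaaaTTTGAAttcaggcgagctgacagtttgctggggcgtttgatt
Kif23: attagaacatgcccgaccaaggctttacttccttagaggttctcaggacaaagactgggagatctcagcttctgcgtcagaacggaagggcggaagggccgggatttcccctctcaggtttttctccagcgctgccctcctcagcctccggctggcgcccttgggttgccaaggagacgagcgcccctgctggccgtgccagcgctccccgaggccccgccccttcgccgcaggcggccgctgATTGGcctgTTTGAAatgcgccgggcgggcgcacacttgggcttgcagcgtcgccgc
Ube2c holds 1 TTTGAA and 6 CCAAT matches, Hmmr 1 and 5, and Kif23 1 of each. The matches describe letters in these windows and not bound sites.

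DNA replication genes rose almost as uniformly but by less on the probe sets used: 31 of 33 rose, none fell, and the median was 3.13. The replicative helicase subunits were already at 10.75 to 13.11 in every follicular array and rose by 1.26 ± 0.22 (Mcm4) to 3.13 ± 0.28 (Mcm6). Of the genes that load or start the helicase, Cdc6, Mcm10 and Cdc45 were at 3.15 or below there and rose by more, Cdc6 from 2.98, 2.77 and 2.31 to 12.39, 12.45 and 11.35 (9.38 ± 1.0), Mcm10 by 7.89 ± 0.81 and Cdc45 by 7.26 ± 0.90. Ribonucleotide reductase, which makes deoxynucleotides, rose in both subunits (Rrm1 3.55 ± 0.40, Rrm2 3.63 ± 0.37). Sizes depended on the probe set: others differed by more for Rrm1 (4.95) and Rrm2 (7.59 and 8.39), and by less for Cdc45 (1.73) and E2f1 (3.76). Of the factors of S phase entry, E2f8 and E2f1 (6.96 ± 0.58) rose most. Cdt1 (0.69 ± 0.19) and Pold1 (0.25 ± 0.23) were not called, and the call of Tyms, at 2.30, 4.94 and 2.61 in germinal center arrays, was lost without replicate 2 (0.30) and without any 1 of the follicular arrays (1.13).

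The E2F element TTTNGCG, where N is any base, was found in 11 of 28 replication gene windows (39.3%), against 8.21% of tested genes and 4.22% of all windows. TTTGAA was found in 17.9% of the same 28. The window of Mcm10, the gene with the largest rise among those that hold the element, is shown with its match in capitals (chr2:5012742-5013041, minus strand).
Mcm10: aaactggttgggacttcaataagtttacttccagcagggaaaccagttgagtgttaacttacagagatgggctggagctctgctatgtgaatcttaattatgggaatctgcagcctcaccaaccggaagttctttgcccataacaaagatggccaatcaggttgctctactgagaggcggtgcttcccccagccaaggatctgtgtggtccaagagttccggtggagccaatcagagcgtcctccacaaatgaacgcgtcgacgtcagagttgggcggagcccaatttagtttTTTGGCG

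The D cyclins, which drive G1, changed in different directions on the probe sets used. Ccnd2 went from 10.39, 11.19 and 10.97 to 2.63, 4.28 and 3.10 (-7.51 ± 0.31, adjusted p = 1.13e-12 in limma). Ccnd1 also fell (-1.32), but a second probe set differed by -0.15, and the call was lost without follicular replicate 3 (-1.09). Only Ccnd3, the D cyclin used by dark zone cells, rose (2.14 ± 0.33). The direction of Ccnd3 rests on the probe set used, whose mean across the series was higher; another probe set went from a mean of 10.28 to 4.08 (-6.20), and with the mean of its probe sets the gene was lower (-1.26). Cdk4 (1.15 ± 0.14) rose, and Cdk6 was not called (0.83 ± 0.44). Among inhibitors, Cdkn2c rose from 6.74, 6.30 and 6.54 to 9.87, 9.81 and 10.11 (3.40 ± 0.49). Cdkn1a stayed low in both populations (2.43 to 2.67 and 2.38 to 3.41), and the retinoblastoma gene Rb1 fell by 1.45 ± 0.25.

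Of 29 tested genes of antibody mutation and DNA repair, 18 rose, 1 fell and 10 were not called. Those that process uracil and mismatches, the lesions left by the mutator enzyme, rose in 8 of 9 cases. The uracil glycosylase Ung went from 9.15, 9.28 and 9.43 to 11.99, 12.02 and 11.32 (2.49 ± 0.26), and the error-prone polymerase Polh from 11.15, 11.24 and 11.36 to 13.62, 13.42 and 13.62 (2.30 ± 0.32). The exonuclease Exo1 rose by 5.89 ± 0.70, the glycosylase Neil1 by 4.10 ± 0.50, and the mismatch binding subunit Msh6 by 1.39 ± 0.16. All 6 tested genes of homologous recombination rose, among them Rad51ap1 (7.95 ± 0.86), Fancd2 (6.02 ± 0.55) and Brca1 (5.63 ± 0.74). In contrast, 1 of 7 genes of end joining rose, Lig4 (2.00 ± 0.63), while Xrcc5 (0.16 ± 0.26), Prkdc (0.49 ± 0.26) and Trp53bp1 (-0.37 ± 0.12) were not called. In damage signalling Chek1 went from 2.46, 3.65 and 2.75 to 11.51, 11.83 and 10.92 (8.47 ± 0.73), and the fall of Atr (-1.20 ± 0.19) was not called without germinal center replicate 3 (-0.97).

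Genes of the BCL2 family set the threshold for death. Of 4 tested survival genes of the BCL2 family, Bcl2 and Bcl2l2 (-2.80 ± 0.39) fell, while Mcl1 (-0.41 ± 0.10), on which germinal center cells are known to depend, and Bcl2l1 (0.87 ± 0.39) were not called; Bcl2l1 was called higher without follicular replicate 1 (1.10). Of 7 death genes 4 rose and none fell. Bad went from 8.31, 9.03 and 8.92 to 11.35, 10.73 and 10.65 (2.16 ± 0.31), Bak1 rose by 1.97 ± 0.35 and Bcl2l11 by 1.26 ± 0.20. Pmaip1 rose by 1.17 ± 0.35, a call lost without germinal center replicate 3 (0.94). Downstream of Fas, the inhibitor Cflar (-2.08 ± 0.23) and the caspase Casp8 (-1.20 ± 0.22) fell; of 4 other probe sets of Cflar, 3 differed by -1.55 to -2.06 and 1 by -0.48.

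Of 18 tested genes of B cell identity 15 were not called, none rose, and 3 fell: Pou2f2 (-2.17 ± 0.21), Cd72 (-2.03 ± 0.18) and Foxp1 (-1.01 ± 0.17). The call of Foxp1 was lost without germinal center replicate 1 (-0.88) or 2 (-0.90), or follicular replicate 1 (-0.99) or 3 (-0.99), while its 7 other probe sets were lower by more (-1.46 to -3.89). Pax5 (5.95, 6.62 and 6.47 against 6.39, 5.97 and 4.84), Ebf1 (-0.44 ± 0.24) and Bach2 (0.63 ± 0.36) were not called. Of the 18 identity genes, 10 had all germinal center arrays below all follicular arrays and 3 had them above. Over all tested genes these shares were 29.5% and 28.1%. None of the 10 kinases and adaptors of the antigen receptor was called, Syk (-0.65 ± 0.15), Btk (-0.35 ± 0.11) and Blnk (0.15 ± 0.08) among them, although Pik3ap1 (0.96 ± 0.30) was called higher without germinal center replicate 2 (1.14) or follicular replicate 2 (1.07). Of 8 inhibitors of the receptor 3 fell: Cd72, the phosphatase Ptpn22 (11.21, 11.02 and 11.24 against 7.62, 6.94 and 6.74, -4.06 ± 0.31) and Pecam1 (-3.48 ± 0.44). By non-overlap of arrays, 5 of the 10 kinases and adaptors were separated upward and 4 downward, and 7 of the 8 inhibitors downward. The probe sets annotated to Ighm disagreed. The brightest fell by 3.10 ± 0.19, in a sort from which cells with surface IgM had been removed, and 2 others were lower (-2.15 and -2.66), while 5 were higher by 11.59 to 12.99 and 1 by 2.05; these can share sequence with other heavy chains, so no level of Ighm is given.

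Most class II presentation genes were not called: H2-Ab1 (-0.22 ± 0.10), Cd74 (-0.13 ± 0.08) and 5 others of 9 did not pass, and H2-Oa (-1.43 ± 0.31) and the class II activator Ciita (-1.19 ± 0.20) fell. The differences were small but of 1 direction: in all 9 genes every germinal center array lay below every follicular array. That compares with 29.5% of tested genes, and the list median was -0.46. Molecules of T cell contact were lower in most called cases. Cd86, a ligand of CD28, was the exception and went from 8.20, 9.12 and 9.05 to at least 12 and at most 12.50 (3.54 ± 0.28). Icosl, the ligand of ICOS on helper cells, fell from 14.38, 14.30 and 14.41 to 11.83, 11.28 and 12.30 (-2.56 ± 0.31). Cd274 (PD-L1) fell by 3.48 ± 0.31 and Cd40 by 1.63 ± 0.14. Of 6 receptors for cytokines and survival factors 4 fell, Il10ra (-2.23 ± 0.32) and Tnfrsf13b (-1.50 ± 0.15) furthest, while Il21r (-0.58 ± 0.32) and the BAFF receptor Tnfrsf13c (-0.32 ± 0.11) were not called. The other two falls, of Il4ra (-1.19) and Il6st (-1.16), were not called without germinal center replicate 3 (-0.97 and -0.92), nor that of Il6st without follicular replicate 3 (-0.91). Ctla4, in the list of helper T cell genes, rose from 3.58, 2.48 and 2.24 to 7.08, 6.87 and 7.30 (4.32 ± 0.42), while Cd200 of that list fell (-2.25 ± 0.31) and Icos, Il21 and Pdcd1 were at background in both populations.

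**Figure D3:**
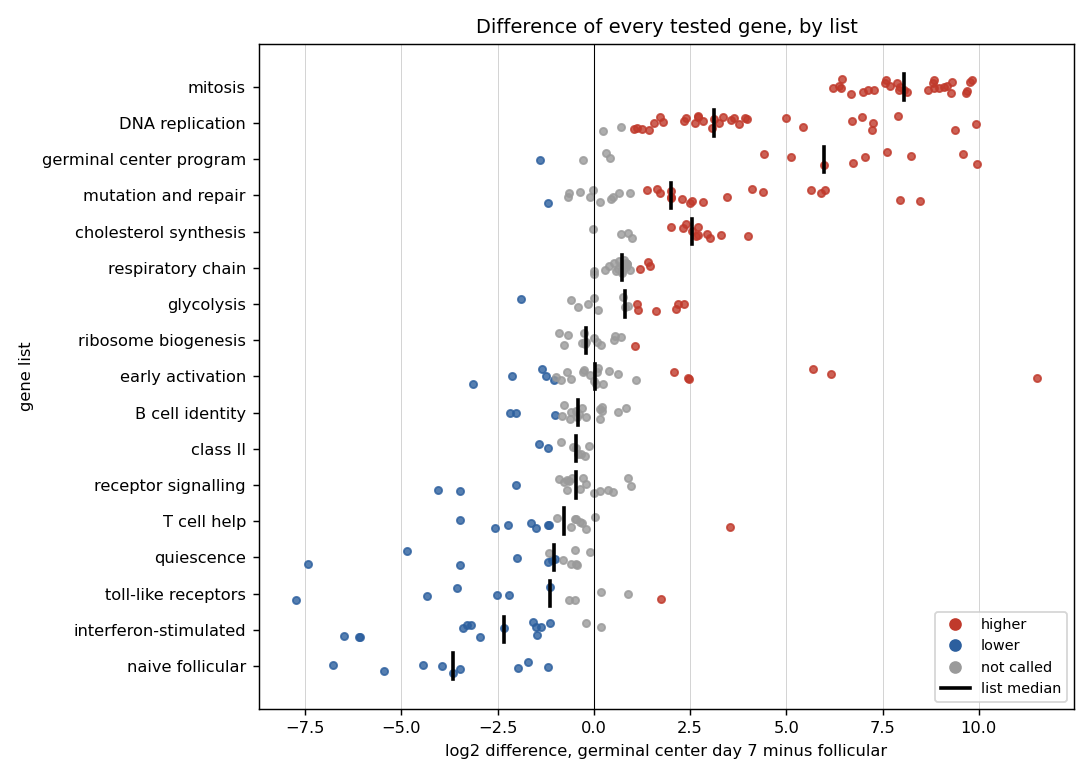
Log2 difference between day 7 germinal center and follicular B cells for every tested gene of 17 lists (1 point a gene; red higher, blue lower, grey not called; black bars are list medians). The mitosis genes form the most distant group, with a median of 8.05, the respiratory chain lies just above 0 (0.735), and the interferon-stimulated and naive follicular lists lie below it (-2.33 and -3.66).

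Toll-like receptors sense microbial products and nucleic acids. Of 11 tested toll-like receptors and accessory proteins 6 fell and 1 rose. Tlr7, a sensor of single-stranded RNA, went from 9.29, 10.35 and 10.05 to the floor of 2.15 on all 3 germinal center arrays (-7.75 ± 0.33, a lower bound), and Tlr2 (-4.33 ± 0.46) and Tlr1 (-2.21 ± 0.13) fell. Ly96, the partner of Tlr4, rose by 1.74 ± 0.30, and a second gene of the list was called higher without follicular replicate 2. Tlr4 itself fell by 2.51 ± 0.80 on uneven arrays (7.20, 5.07 and 2.95), a call lost without germinal center replicate 3 (-1.45) or follicular replicate 2 (-2.19).

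Of 15 tested interferon-stimulated genes 13 fell and none rose, against 16.6% of all tested genes that fell, with a median of -2.33. Mx1, an antiviral GTPase, went from 9.67, 10.63 and 10.60 to 3.20, 4.66 and 3.57 (-6.49 ± 0.42, adjusted p = 6.31e-10). Ifit3 went from 9.48, 9.62 and 9.51 to 4.54, 3.23 and 2.51 (-6.11 ± 0.48), and Rtp4 from 9.05, 9.17 and 9.20 to 3.09, 3.09 and 3.0 (-6.08 ± 0.36). Irf7 (0.19 ± 0.28) and Ifih1 (-0.21 ± 0.54) were not called, and the calls of Oas1a (-1.13), Oas2 (-1.50) and Oas3 (-1.37) were each lost without follicular replicate 2 (-0.93, -0.78 and -0.95). Oas1a was also not called without germinal center replicate 3 (-0.76), nor Oas3 without follicular replicate 3 (-1.13) or any 1 of the germinal center arrays (-1.37 to -1.39). For 9 of these 15 genes, Mx1 and Ifit3 among them and Rtp4 not, levels were also called lower than in day 7 memory B cells, against 12.1% of all tested genes. Mx1 stood at 10.03 ± 0.96 in memory cells (SD, n = 3). Low levels were not particular to germinal center cells. Compared with stimulated follicular B cells, 6 of the 15 were called higher and 1 lower, against 23.2% and 18.8% of all tested genes. Mx1 stood at 4.66, 4.23 and 4.39 in the stimulated cells.

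Windows of 11 of the 15 genes were matched. The core of the interferon response element, read as GAAA, any 2 bases and GAAA on either strand, was present in 8 of them (72.7%), against 3.77% of tested genes and 3.44% of all windows; this element was added to the search after the falls were seen. The windows of Ifit3 (chr19:34583279-34583578, plus strand) and Rsad2 (chr12:26456403-26456702, minus strand), the 2 largest falls among genes that hold it, are given with matches in capitals.
Ifit3: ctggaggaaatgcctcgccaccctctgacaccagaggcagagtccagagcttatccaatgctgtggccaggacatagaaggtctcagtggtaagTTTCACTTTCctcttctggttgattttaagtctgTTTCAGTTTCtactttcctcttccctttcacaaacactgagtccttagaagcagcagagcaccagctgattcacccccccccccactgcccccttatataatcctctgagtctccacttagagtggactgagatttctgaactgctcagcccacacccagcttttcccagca
Rsad2: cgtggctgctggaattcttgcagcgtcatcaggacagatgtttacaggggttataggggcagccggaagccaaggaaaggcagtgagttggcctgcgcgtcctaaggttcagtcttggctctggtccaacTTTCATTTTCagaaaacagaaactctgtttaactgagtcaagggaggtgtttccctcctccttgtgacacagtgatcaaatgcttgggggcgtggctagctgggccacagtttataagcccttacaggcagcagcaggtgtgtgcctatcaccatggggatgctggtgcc
Rsad2, which encodes the antiviral enzyme viperin, fell by 2.97 ± 0.48.

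Genes used to tell the zones of the germinal center apart were compared next. Of 7 tested dark zone genes 5 rose, and Cxcr4 and Foxo1 were not called. Of 13 light zone genes 2 rose, Cd86 and Traf1 (1.82 ± 0.20), and 4 fell, Ccnd2, Egr3 (-3.13 ± 0.20), Cd40 and Egr1 (-1.25 ± 0.32). Cd83, a light zone surface marker, stood at 14.21 to 14.25 in follicular and 14.39 to 14.46 in germinal center arrays and was not called (0.18 ± 0.09). Myc, switched on in a minority of light zone cells, was uneven: it stood at 8.56 and 8.58 on germinal center replicates 1 and 2, and at 10.87 on replicate 3, against 10.14, 10.15 and 10.27 in follicular arrays. It was not called (-0.85 ± 0.63), but was called lower without replicate 3 (-1.62).

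Of 13 early response factors of the AP-1, Egr and Nr4a families 5 rose, 2 fell and 6 were not called. Nr4a3, an orphan nuclear receptor, rose from 4.47, 5.17 and 4.94 to 11.35, 10.81 and 10.92 (6.17 ± 0.26), although a second probe set of it showed a difference of 0.00, and its relative Nr4a1 rose by 2.08 ± 0.36. Fosb rose by 5.69 ± 1.12, while Fos (-0.28 ± 0.43), Jun (-0.99 ± 0.62) and Junb (0.00 ± 0.30) were not called; Jun was called lower without germinal center replicate 2 (-1.66). Ier2 (-2.11 ± 0.41) fell, as did Egr3 and Egr1, while Egr2 was not called (-0.26 ± 0.44). Beside them the inducible heat shock genes were much higher: Hspa1b went from 3.16, 5.51 and 4.68 to between 13.63 and 14.34 (9.54 ± 0.84) and Hspa1a from the floor to 10.21, 9.53 and 8.48 (7.26 ± 1.10). The constitutive Hspa8 was not called (0.47 ± 0.11).

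Of 15 tested genes of cholesterol synthesis 11 rose and none fell (median 2.55): Fdps went from 7.16, 7.37 and 7.95 to 11.37, 11.53 and 11.57 (4.0 ± 0.57), Lss rose by 3.31 ± 0.42 and Cyp51 by 3.01 ± 0.24. Their regulator Srebf2 was not called (-0.02 ± 0.17). The sterol element core, searched as TCACNCCAC, was present in 1 of 12 promoter windows of cholesterol genes (8.33%), against 1.32% of tested genes. Like the interferon response element, it was not among the elements first chosen and was added to the search. Of 20 respiratory chain genes 3 rose, Sdhb (1.45 ± 0.17), Cycs (1.41 ± 0.23) and Ndufab1 (1.19 ± 0.17), of which Ndufab1 had another probe set that was lower (-1.02) and one that was higher (1.57). Although 17 were below the minimum change, 18 of the 20 had all germinal center arrays above all follicular arrays, against 28.1% of tested genes, and the median was 0.735. In glycolysis Hk2 (2.35 ± 0.20), the monocarboxylate transporter Slc16a1 (2.19 ± 0.29) and Tpi1 (2.14 ± 0.20) rose, and the glucose transporter Slc2a3 fell (-1.88 ± 0.21). In fatty acid oxidation 4 of 17 rose, led by Acads (1.58 ± 0.23), a count of 2 without germinal center replicate 2. None fell, but 3 were called lower without germinal center replicate 1 (Cpt2 -1.73, Acadm -1.09 and Eci1 -1.03), 2 without follicular replicate 1 and 1 without follicular replicate 3, and Cpt1a, the entry step, was not called (0.03 ± 0.32).

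Of 15 ribosome biogenesis genes 1 rose, Nop58 (1.08 ± 0.16), and none fell, with a median of -0.20; without germinal center replicate 2 none rose, and without follicular replicate 1, 1 fell. Follicular B cells stimulated for 6 h with antibodies to IgM and CD40 were used to set these levels against acute activation, a contrast that shares the germinal center arrays with the first and in which 42.1% of tested genes were called. Of the 15 ribosome biogenesis genes 12 were lower in germinal center than in stimulated cells. Utp20 stood at 13.00, 13.17 and 13.37 in stimulated cells, 10.71, 10.45 and 10.04 in germinal center cells and 11.22, 11.10 and 11.19 in resting cells. Myc stood at 13.77 ± 0.25 (SD, n = 3) in stimulated cells, above all germinal center arrays (-4.43 ± 0.63). Of the 15 cholesterol genes 1 was called higher and 1 lower than in stimulated cells. All 29 mitosis genes were higher in germinal center than in stimulated cells.

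**Figure D4:**
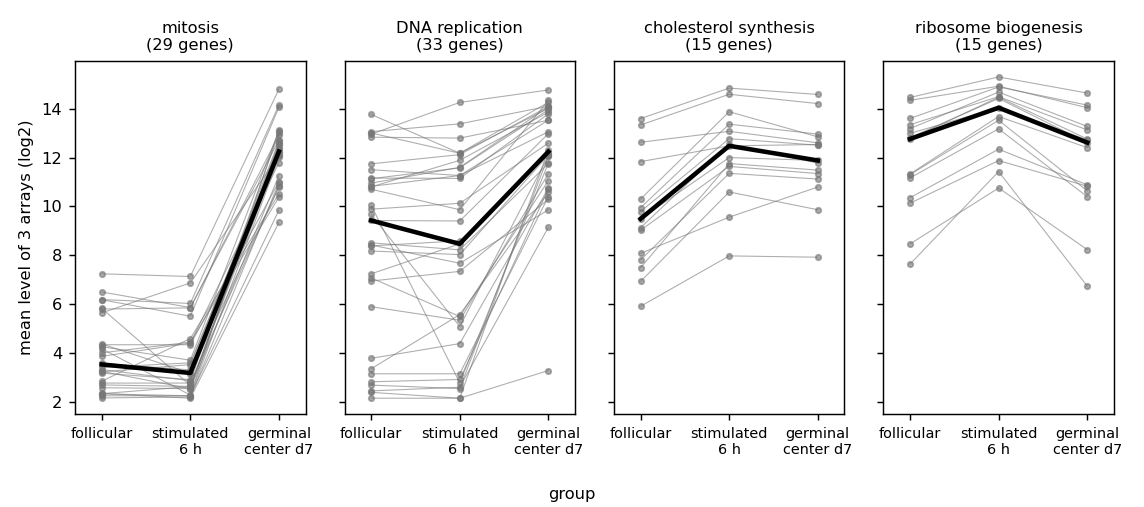
Mean log2 level (vertical, 3 arrays) of each tested gene of 4 lists in follicular, stimulated follicular and day 7 germinal center B cells; grey lines are genes and black lines the list medians. The mitosis median is 3.53 in resting, 3.18 in stimulated and 12.25 in germinal center cells, the cholesterol median 9.49, 12.48 and 11.88, and the ribosome biogenesis median 12.76, 14.04 and 12.62.

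Among genes of antibody-secreting and memory cells, some rose and others fell. Of 15 plasma cell genes 6 rose and 3 fell. Jchain, which links antibody polymers, went from 7.73, 5.48 and 8.75 to 14.73, 14.76 and 14.86 (7.46 ± 0.64), and Tent5c and Slpi rose as above. Slamf7 (3.12 ± 0.27) and Derl3 (3.88 ± 0.34) rose, but Irf4 fell (-1.22 ± 0.14) and the plasma cell regulator Prdm1 stayed low, at 3.30 to 3.66 and 3.14 to 3.49 (-0.05 ± 0.55). Xbp1, the secretory factor, was not called (0.76 ± 0.20). Of 9 memory markers 1 rose, 3 fell and 5 were not called. Their summed level was 14.13 to 14.24 in follicular and 10.09 to 11.78 in germinal center arrays. Nt5e (CD73) rose from the floor to 10.67, 9.76 and 11.56 (8.51 ± 0.33, a lower bound) on the probe set used and differed by 0.18 on another. Cd80 (0.03 ± 0.47), Zbtb32 (0.52 ± 0.35) and Cxcr3 (-0.04 ± 0.25) stayed near background. In day 7 memory cells Zbtb32 stood at 8.89, 10.50 and 9.93 and Cxcr3 at 10.74, 11.15 and 10.62, and both were called lower in germinal center cells (-7.06 and -8.22), while Nt5e was not called (0.52). Memory replicate 1 lay closer to the germinal center arrays than the other memory arrays did (mean r 0.975, against 0.954 and 0.958) and held the most S100a9 of them (13.56, against 2.15 and 7.47); without it Zbtb32 (-7.50) and Cxcr3 (-8.27) were still called lower, as were 9 interferon-stimulated genes.

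Chromatin and glycan genes completed the comparison. Ezh2, the polycomb methyltransferase, went from 10.21, 10.45 and 10.63 to 13.43, 13.46 and 13.44 (3.01 ± 0.18, adjusted p = 1.53e-10), and Uhrf1, which recruits maintenance DNA methylation, rose by 4.32 ± 0.44. The partners of Ezh2, Suz12 (0.80 ± 0.15) and Eed (0.61 ± 0.13), were not called. Tet2 fell from 12.16, 11.28 and 11.96 to 9.0, 7.39 and 9.08 (-3.31 ± 0.49). Dnmt3a was not called on its brightest probe set (0.49 ± 0.18), but 3 of 4 others were lower (-2.27 to -2.54), and the mean of its probe sets was lower (-1.49). Cmah, the enzyme whose loss uncovers the GL7 epitope of germinal center cells, fell from 11.93, 12.59 and 12.21 to 9.34, 10.09 and 10.01 (-2.43 ± 0.25), as did 4 of its other probe sets (-1.83 to -3.52), while 1 differed by 0.73. St3gal1, which caps the glycan that the sort reagent PNA binds, fell by 1.43 ± 0.34.

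Against germinal center B cells of day 40, which carry the same sort, 263 tested genes were higher at day 7 (2.35%) and 401 lower (3.58%), or 5.92% in all; against follicular cells, 32.4% were called at day 40. Day 40 replicate 1 stood apart in neutrophil and macrophage genes, with S100a9 at 13.84, S100a8 at 12.47 and Csf1r at 6.73, against 2.15 for each on the other two day 40 arrays. Without it 585 genes were called in place of 664. The part of these cells in the day 40 differences was not tested beyond leaving that array out. None of the 13 germinal center program genes was called between the days, a count near the 5.92% of all tested genes. Several genes that fell from follicular to day 7 cells were lower still at day 40. Il10ra stood at 9.38, 7.83 and 8.33 at day 7 and 2.96, 2.34 and 2.30 at day 40 (5.98 ± 0.32, adjusted p = 1.40e-10). Ptpn22 stood at 4.0, 2.84 and 2.84 at day 40 (a difference of 3.87 ± 0.31), Itgb7 at 6.40, 3.96 and 4.52 (3.30 ± 0.46) and Bcl2 at 3.76, 2.49 and 2.57 (2.46 ± 0.31). Ccnd2 showed the reverse order: it was at 8.83, 9.22 and 9.15 at day 40, between the follicular and day 7 levels (-5.73 ± 0.31, adjusted p = 1.86e-10). Without day 40 replicate 1 the differences were 6.19 for Il10ra, 4.26 for Ptpn22, 4.02 for Itgb7, 2.87 for Bcl2 and -5.85 for Ccnd2.

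**Figure D5:**
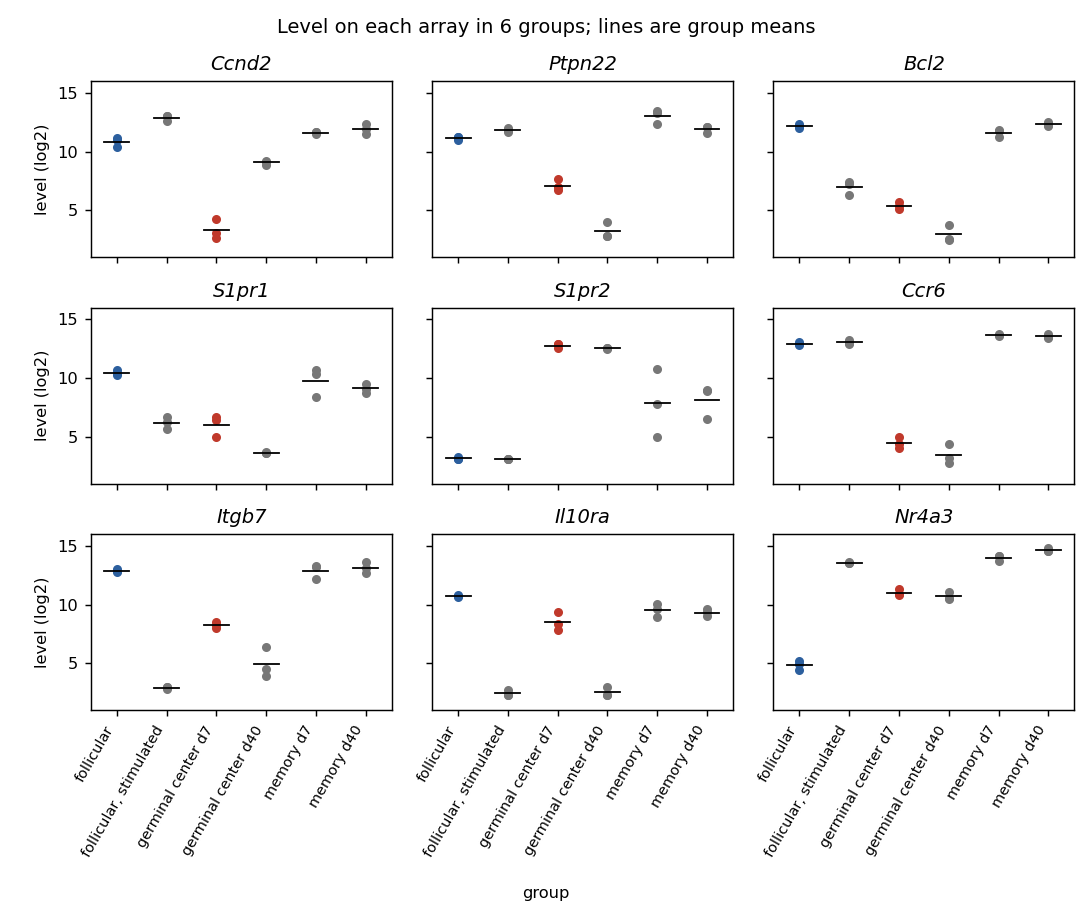
Level (log2, vertical) of 9 genes on each array of 6 groups (horizontal), with lines at group means; follicular arrays are blue and day 7 germinal center arrays red. Ccnd2 is lowest at day 7 (3.34 ± 0.85, SD) and intermediate at day 40 (9.07 ± 0.21), whereas Bcl2, S1pr1, Itgb7, Ptpn22 and Il10ra are lower at day 40 than at day 7.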

How the data were processed

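The deposited table holds log2 values that the authors made with GCRMA, per the submitters' processing notes; the version is not given in the sources used here. GCRMA corrects background from probe sequence, normalizes arrays by quantiles and summarizes 1 value per probe set, which compresses low signals to a floor. Of 45101 probe sets (64 controls), 34945 had 1 gene symbol in the platform annotation, 932 several and 9160 none. For each of 18193 genes the probe set whose mean over all arrays was highest was used, and the 11208 above the array median (50th percentile) on at least 3 arrays were tested. Of 128 called genes among those described that had another probe set past that filter, 31 had one that differed by less than 1 and 3 one that moved by at least 1 the other way. Differences were fitted with limma 3.58.1 in R 4.3.3, with a mean for each of 8 groups over 24 arrays and the default variance prior. The labels give no batch or scan date. Figures were drawn with matplotlib 3.10.9.

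The genes named are the 12 largest rises and falls among called genes whose arrays do not overlap, index genes of the germinal center, and members of 36 gene lists (514 genes, of which 469 had a named probe set here and 443 were tested; the others were not analysed here). The members and lists were chosen with earlier results of these data known. On simulated data for this contrast (11208 genes, 50 changed genes per size), 36% of changes of 1 and 90% of 1.5 or 2 were recovered, with 10 false calls. Alternatives were the filter, normalization, offset, choice of probe set, prior, samples in the fit, a replicate block, no minimum change, and each array left out; leaving out replicate 1 of the day 40 germinal center or day 7 memory arrays was chosen after seeing the data. Promoter windows came from RefSeq (GRCm38.p6). Sequences of proteins were not used here.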

Additional observations from a re-analysis of the deposited data

Results flagged for a closer look

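Of 456 described genes tested, 40 were called between day 7 and day 40 germinal center B cells. Over all tested genes 664 of 11208 were called (5.92%). The 21 described genes with a log2 difference of at least 2, immunoglobulin genes left out, are given here. Their change from follicular cells, which both days share as controls, was not the same on the 2 days. At day 7, 13 were higher: Il10ra (5.98), Cd93 (4.45), Oas1a (4.40), Cd36 (4.12), Ptpn22 (3.87), Itgb7 (3.30), Pdcd1lg2 (3.15), Spn (3.11), Cd55 (3.11), Ccr7 (2.61), Bcl2 (2.46), S1pr1 (2.37) and Cmah (2.12). For Cd93, Cd36, Spn and Pdcd1lg2 the day 7 cells were not called different from follicular cells, while the day 40 cells were lower than follicular cells (-4.01, -2.91, -2.63 and -3.62). Cells with the proteins of Cd93 (AA4.1) and Spn (CD43) had been excluded from the follicular sort. At day 7, 8 were lower: Ccnd2 (-5.73), Cdkn1a (-4.60), Ier3 (-3.68), Prdm1 (-3.23), Tlr3 (-3.14), Hhex (-2.35), S100a10 (-2.21) and Il27ra (-2.01). Cdkn1a, Ier3 and Prdm1 were not called at day 7 and were higher than in follicular cells at day 40 (4.91, 3.78 and 3.18). The day 40 arrays of Ccr7 (SD 2.57) and S100a10 (SD 1.93) were spread widely, with adjusted p = 0.0267 and 0.047 in limma. Day 40 replicate 1 held high S100a9 (13.84). Without it, an alternative chosen after seeing the data, Hhex (-2.13, adjusted p = 0.0869 in limma) and S100a10 (-1.30, adjusted p = 0.282) were not called, Ccr7 differed by 4.01, and the other 18 kept their call.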

How the results depend on the processing

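The counts of genes higher and lower moved by less than 1.5 times under all alternatives except no minimum change, which gave 2752 and 2930 (for day 40 germinal center cells 1008, for day 7 memory cells 4672). Which genes were called changed more. Averaging all probe sets of a gene kept 80.2% of the main calls tested there, and each other alternative at least 89.9%. With that averaging 20 described genes lost their call, Bcl2l2 (-0.73), Rb1 (-0.74) and Irf4 (-0.88) among them, and 11 gained one, such as Btg1 (-1.06). Against day 40 germinal center cells, the stricter filter gave 427 calls and fitting only the compared groups 425, instead of 664. Among described genes direction turned in 5 cases: averaging all probe sets of a gene, Ighm (5.07), Ccnd3 (-1.26) and Dnmt3a (-1.49), and without cross-hybridizing probe sets Ighm (12.99) and Atp5c1 (-1.41). Without day 40 replicate 1 the calls against day 40 cells were 585, and without memory replicate 1 those against memory cells 2886. With each compared array left out in turn, 3308 to 3505 genes were called, and 2820 of the 3474 calls were made each time. The range of calls covers the arrays with neutrophil signal, germinal center replicates 1 (3444 without it) and 2 (3308), and follicular replicate 1 (3452). With the replicate number as a block 3484 genes were called, 3461 of them shared; same-numbered deviations correlated at -0.31, -0.21 and 0.04, so the numbers give no pairing. Quantile normalization or equal medians moved the median of all genes to -0.0276 or 0.0300, and the share of calls that were higher from 46.5% to 45.7% or 48.4%. Signal at the floor limits what can be measured: differences from a population at background are lower bounds.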
